A study of Mus musculus with 183 samples.

Results

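The 10 genes described here encode chaperones and folding enzymes of the endoplasmic reticulum, with a stress-induced co-chaperone of the same compartment and the transcription factor that induces many of them. They are Calr, Pdia4, Hspa5, Hsp90b1, Pdia3, Pdia6, Canx, Hyou1, Dnajb9 and Xbp1. They were listed by name, and all 10 were present among the 53380 genes of the count table and among the 7240 mRNAs of the table of protein binding. The question was whether the chaperone mRNAs other than Calr and Pdia4, both of which the study names among its SKIV2L targets, had similar binding and similar half-lives.

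Proteins that enter the endoplasmic reticulum fold there with the help of chaperones. Hspa5 (BiP) and Hsp90b1 hold unfolded chains, Calr and Canx bind chains through their sugars, and the disulphide isomerases Pdia3, Pdia4 and Pdia6 form and rearrange disulphide bonds. When unfolded protein accumulates, the sensors IRE1, ATF6 and PERK start the unfolded protein response, in which IRE1 splices the Xbp1 mRNA and the resulting factor, together with ATF6, raises transcription of the chaperone genes. SKIV2L is the helicase of the cytoplasmic Ski complex, which feeds mRNA 3′ to 5′ into the exosome. XRN1 degrades mRNA 5′ to 3′ in the cytoplasm, MTR4 serves the nuclear exosome, and AVEN is an RNA-binding protein that associates with polysomes.

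The counts came from mouse embryonic stem cells (male, 129 × C57BL/6, grown in serum and LIF) in 47 libraries. Clone 5F carried Rosa26Cre-ERT2/- and Skiv2lfl/fl, a Skiv2l gene with loxP sites around exons that encode the catalytic part. Clone 7E was Aven-/-, and the labels of its half-life libraries give Rosa26Cre-ERT2/BirA-V6 (BirA-V5 in the study's list of lines) and tagged Skiv2l (3xFLAG-Avi on both alleles), while the labels of other libraries of 7E add Skiv2lfl/fl. Cells were taken at day 0 or at day 4 of 0.1 µM 4-hydroxytamoxifen (4OHT), which activates the Cre recombinase in either clone. At each day they received DMSO for the length of the longest treatment (mock, written as 0 min) or actinomycin D, an inhibitor of transcription, for 120, 240 or 360 min. Each group had 3 libraries, apart from 5F at day 0 and 120 min with 2. The replicates were wells of a single clone and are called technical in the study's methods, so the p-values measure only the spread between these samples. Clone and genotype cannot be told apart, and neither can 4OHT and the days in culture, since no library was kept for 4 days without 4OHT. The binding values came from other lines of these stem cells, not from 5F or 7E. Those lines carried Rosa26Cre-ERT2/BirA-V5 and a FLAG-Avi tag on both alleles of Skiv2l, Xrn1, Mtr4 or Aven. The study describes no 4OHT treatment for them.

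Total counts per library ran from 24540658 to 34208466 (median 28533868). In the mock libraries Skiv2l, the targeted gene, had normalized counts of 4150, 4136 and 4205 in 5F at day 0 and 4415, 3825 and 4162 in the 5F libraries labelled day 4. It did not fall there (log2 change -0.01, edgeR adjusted p = 0.914), so these libraries are called by their label throughout. In 7E it went from 968, 1038 and 903 to 405.5, 389 and 367.5 (log2 change -1.32, edgeR adjusted p = 7.78e-13). A count over the whole gene also holds the exons that Cre leaves in place. Aven was at 998 to 1012 in 5F and at 56.6 to 86.0 in 7E at day 0, as its label states. The 10 markers of embryonic stem cells were Pou5f1, Nanog, Sox2, Zfp42, Esrrb, Klf4, Tfcp2l1, Dppa5a, Tdgf1 and Utf1. All 10 were above 100 normalized counts in every mock group. Their summed level was 94511 to 97286 in 7E at day 4 against 105959 to 112354 in the other mock groups. The summed fibroblast markers were at 97 to 312 in all mock libraries. In 12 libraries, 1 in each actinomycin D group, mitochondrially encoded genes took 0.705% to 1.24% of counts, against 1.63% to 3.97% in the other 35 libraries. They were replicate 1 of each group at 120 min, replicate 2 at 240 min and replicate 3 at 360 min.

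Most of the chaperone mRNAs were abundant, and Xbp1 and Dnajb9 had the lowest levels of the members. Per kilobase of exon, in 5F at day 0 in mock, Calr had a normalized count of 7824 ± 192 and Hspa5 of 7576 ± 411 (SD, n = 3 in this paragraph). Canx followed with 6679 ± 266 and Hsp90b1 with 6342 ± 344 per kilobase. Calr and Hspa5, and likewise Canx and Hsp90b1, overlapped in level. The disulphide isomerases formed the next set, with Pdia3 at 3696 ± 202, Pdia4 at 2942 ± 72.4 and Pdia6 at 2790 ± 96.9 per kilobase, the latter pair overlapping. Hyou1, which exchanges the nucleotide of Hspa5, had 1227 ± 43.1. Xbp1 had 780 ± 12.9 and Dnajb9, a co-chaperone of Hspa5, was lowest with 138 ± 4.91. In 7E at day 4 the order differed at the top, with Canx at 10491 ± 442 per kilobase, Calr at 6500 ± 26.2 and Hspa5 at 4308 ± 159. The length used is the union of a gene's exons, which exceeds the main transcript for most members (7230 against 4432 nt for Hyou1), so levels between genes are approximate. Genes that overlap a member had mean counts of at most 127 per library.

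Transcription of several genes of this kind is known to be induced through the endoplasmic reticulum stress element, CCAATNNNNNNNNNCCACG. Its CCAAT and CCACG parts lie 9 bases apart. The RefSeq promoter windows, from 250 bases before to 50 after an annotated start in GRCm38.p6, were available for 9 of the 10 members. Searched on both strands, the element stood in the windows of 5 members, Calr, Hspa5, Hsp90b1, Pdia6 and Canx, and in 0.119% (39) of all 32851 windows. Hsp90b1 held 2 copies. The windows of Pdia4, Pdia3, Dnajb9 and Xbp1 did not hold these letters. Hyou1 was the member without a window. The stretches with the element are shown because some of the members share it. The element was already known as an inducer of such genes, so its share among the members is no test. Each is written 5′ to 3′ on the strand of its gene, with the CCAAT and CCACG parts, or their reverse complements ATTGG and CGTGG, in capitals. The positions, in the order printed, are chr8:84847055-84847113 (- strand), chr2:34772005-34772063 (+ strand), chr10:86705513-86705676 (- strand), chr12:17266471-17266529 (+ strand) and chr11:50325780-50325838 (- strand).
Calr: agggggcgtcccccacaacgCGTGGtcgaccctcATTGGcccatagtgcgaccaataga
Hspa5: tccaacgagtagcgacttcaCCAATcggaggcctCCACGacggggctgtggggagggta
Hsp90b1: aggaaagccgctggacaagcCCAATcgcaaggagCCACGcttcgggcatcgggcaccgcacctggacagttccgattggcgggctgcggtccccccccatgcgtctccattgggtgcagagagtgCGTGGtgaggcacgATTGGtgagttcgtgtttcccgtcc
Pdia6: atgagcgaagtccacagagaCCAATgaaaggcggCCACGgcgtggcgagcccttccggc
Canx: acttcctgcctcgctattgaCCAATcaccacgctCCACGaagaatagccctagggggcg

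In the other lists the element was found in the windows of Creld2 and Dnajc3 (of 36 other folding genes with a window) and of Derl3 and Syvn1 (of 18 genes of endoplasmic reticulum-associated degradation). A match of letters is a description and shows no binding.

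At steady state the chaperones with the largest change were lower in the 5F libraries labelled day 4. Hspa5 had normalized counts of 32490, 30119 and 33508 at day 0 and of 24199, 23712 and 21603 in the 5F libraries labelled day 4. The groups did not overlap, and the level was 0.723 times that of day 0 (log2 change -0.47, standard error 0.05, edgeR adjusted p = 8.13e-07). Calr went from 22475, 22011 and 23110 to 19233, 18510 and 18040 (log2 change -0.28, edgeR adjusted p = 8.10e-05). Pdia6, a disulphide isomerase, fell by 0.30 on the log2 scale, from 10450 ± 363 to 8510 ± 246 (SD, n = 3, edgeR adjusted p = 4.82e-05). Hsp90b1 fell by 0.27, from 25570 ± 1386 to 21180 ± 1099 (edgeR adjusted p = 3.82e-04), and Xbp1 by 0.28, from 2533 ± 42.0 to 2093 ± 29.5 (edgeR adjusted p = 1.96e-04). Pdia4, with 7096, 6867 and 7207 at day 0 and 6109, 6136 and 5950 later, fell by 0.22 (edgeR adjusted p = 8.13e-04). In each of these genes every library labelled day 4 lay below every library of day 0. The genes were picked by their call, so this adds no test. The share of all genes that separate in this way was not counted.

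In total 6 of 10 members were lower and 0 were higher in 5F, where 11.6% of 16349 genes were called lower and 12.8% higher. Of the 8 members other than Calr and Pdia4, 4 were lower. The remaining members did not pass the threshold. Pdia3 had a log2 change of -0.11 (edgeR adjusted p = 0.0884), Hyou1 of -0.05, Canx of 0.03 and Dnajb9 of -0.00, with standard errors of 0.05, 0.05, 0.05 and 0.08. The median of the members was -0.25 (log2 change) against -0.00 for all genes tested, and each of the 6 calls kept its direction with every replicate left out and with every library scaled by its own ERCC spike-ins. ERCC RNAs are synthetic transcripts that were added to the lysis buffer. Markers of other cell states moved over the same days in 5F. The 6 markers of primitive endoderm, a cell type that can arise in such cultures, went from sums of 3095 to 3294 to sums of 2523 to 2585, with 2 called lower (Dab2 by -0.81) and 1 higher (Foxa2 by 0.42). The 5 markers of the primed state went from 14625 to 15309 to 13074 to 13269, with 2 called lower. Of 5 fibroblast markers, 2 were called higher (Col3a1 by 0.84 and Thy1 by 0.64) and 0 lower. Their sums were low, 188 to 218 at day 0 and 260 to 312 later. The part of either list in the chaperone changes was not tested.

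In 7E the same comparison divided the members. Hspa5 went from 24612, 22390 and 25763 at day 0 to 18703, 18502 and 17448 at day 4, again without overlap (0.751 times, log2 change -0.41, standard error 0.05, edgeR adjusted p = 5.46e-07). Xbp1 went from 2433, 2203 and 2587 to 1994, 1943 and 1900 (log2 change -0.31, edgeR adjusted p = 1.70e-04). Calr and Hsp90b1 each fell by 0.23 (edgeR adjusted p = 2.38e-04 and 5.57e-04). Canx, the membrane-bound lectin chaperone, rose from 42314, 40617 and 42552 to 49132, 51357 and 47211 (log2 change 0.24, standard error 0.05, edgeR adjusted p = 2.16e-04). Members called lower numbered 4 and higher 1, of 10, where 19.4% of 16333 genes were lower and 20.7% higher. Pdia4 had a log2 change of -0.04 in 7E (edgeR adjusted p = 0.577), and Pdia3 0.11, Hyou1 0.11, Dnajb9 0.13 and Pdia6 -0.11 did not pass the threshold either. Without replicate 1, Hsp90b1 lost its call in 7E (log2 change -0.18).

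These directions are relative to the other mRNAs. The 7E libraries of day 4 held 189084 to 200706 ERCC counts in mock, against 78027 to 94216 in the other mock groups, and with each library scaled by its own spike-ins all 10 members were called lower in 7E (log2 change -1.51 to -0.86, Canx included, against a median of -1.10 for all genes). Fewer cells and less RNA per cell cannot be told apart in these bulk samples. In 5F the own spike-ins moved the median of all genes to -0.07. The embryonic stem cell markers were lower in 7E at day 4 as well, with 8 of 10 called lower and 0 higher. Primitive endoderm markers summed to 385 to 436 at day 0 and 525 to 544 at day 4 in 7E, with Foxa2 (log2 change 1.30) and Sox7 (0.53) called higher, and 3 of 5 fibroblast markers were called higher, among them Thy1 (1.66). The part of these markers in the chaperone changes was not tested.

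**Figure D1:**
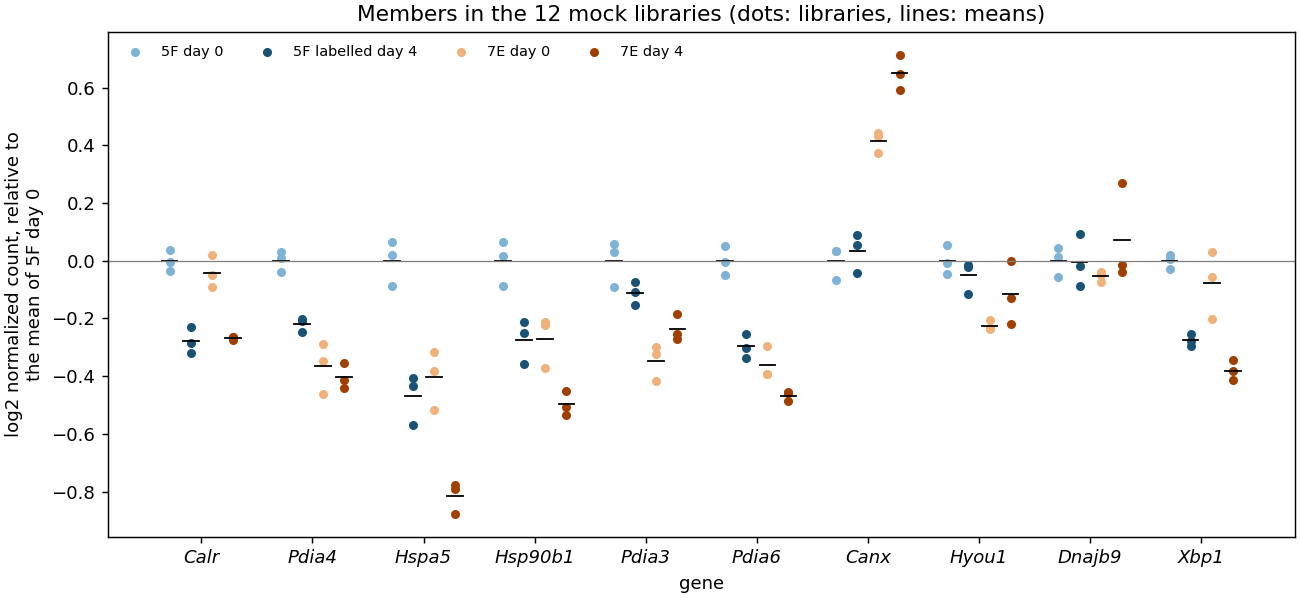
Normalized counts of the 10 genes in the 12 mock libraries, as log2 relative to the mean of 5F at day 0. Each dot is a library and each line the mean of 3. In Hspa5 the 5F libraries labelled day 4 and the 7E libraries of day 4 lie below day 0 of their own clone, while Canx is above it in 7E. With libraries scaled by their own spike-ins Canx was lower in 7E at day 4 (log2 change -0.86).

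The difference between the clones in these changes was tested by an interaction term over the 12 mock libraries, which shares its libraries with both comparisons above. For 3 members, Pdia3 (0.22, standard error 0.06, edgeR adjusted p = 0.0271), Canx (0.20, standard error 0.06, edgeR adjusted p = 0.0363) and Pdia6 (0.19, standard error 0.06, edgeR adjusted p = 0.0378), the log2 change was higher in 7E, and for 0 it was lower, where 6.65% of 17209 genes were called higher and 5.29% lower. Under the libraries' own spike-ins these differences turned negative (-0.81 for Pdia3, -0.83 for Canx and -0.84 for Pdia6, with a median of -1.03 for all genes), and without replicate 1 or without replicate 3 none of the 3 passed the threshold. Hspa5 (0.05, edgeR adjusted p = 0.723) and Calr (0.05, edgeR adjusted p = 0.651) showed no detectable difference, with standard errors of 0.07 and 0.06.

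Before 4OHT the Aven-/- clone 7E had less of most chaperone mRNAs than 5F, and more Canx. The clones differed at that day in Skiv2l as well as in Aven, with Skiv2l at 0.233 times its level in 5F (log2 difference -2.10, edgeR adjusted p = 1.06e-19). Pdia4 was at 5550, 5122 and 5773 in 7E against 7096, 6867 and 7207 in 5F (log2 difference -0.36, edgeR adjusted p = 4.25e-07). Hspa5 was lower by the same measure (-0.40, edgeR adjusted p = 3.52e-07), as were Pdia6 (-0.36), Pdia3 (-0.34), Hsp90b1 (-0.27) and Hyou1 (-0.23), with edgeR adjusted p of at most 6.52e-05. Canx was higher in 7E (log2 difference 0.42, edgeR adjusted p = 1.03e-08), with 40617 to 42552 normalized counts against 29904 to 32064. In all, 6 members were lower and 1 was higher, where 19.7% of 16299 genes were lower and 20.0% higher. Calr (-0.04), Dnajb9 (-0.05) and Xbp1 (-0.07) did not pass the threshold. With the replicate number as a block, Xbp1 was called lower as well (-0.08, edgeR adjusted p = 0.0411), which made 7 lower members. Canx stayed higher and the 6 stayed lower under own spike-ins, with members between -0.56 and 0.26. The clones also differed in the 6 markers of primitive endoderm, all lower in 7E, with sums of 3095 to 3294 in 5F and 385 to 436 in 7E. The 5 markers of the primed state summed to 14625 to 15309 in 5F and 7234 to 7775 in 7E, with 2 lower and 1 higher. No gene of either list was at 0, and their part in the chaperone levels was not tested.

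Across the 12 mock libraries, Hsp90b1 and Hspa5 followed each other most closely among the members (Pearson r = 0.98 on log2 normalized counts), then Pdia6 and Pdia4 (r = 0.96). Canx ran against the mean of the members (r = -0.64), and Dnajb9 had r = 0.04 with it. Each gene is itself part of that mean, which raises its r. Outside the list, Pi4k2b, Arl6ip1, Gpbp1l1, Tspan31 and Psma2 had the pattern most like the members' mean (r = 0.96 to 0.97). The 12 libraries fall into 4 groups of wells, so these correlations describe group differences for the most part and carry no test.

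Other lists of the same compartment are read against the shares of all genes given above, 12.8% higher and 11.6% lower in the 5F libraries labelled day 4 and 20.7% higher and 19.4% lower in 7E. Of 46 other folding enzymes and chaperones, 5 were higher and 18 lower in 5F, and 11 were higher and 10 lower in 7E, the latter near the shares of all genes. Creld1 was among the lower genes in both clones (log2 change -0.57 in 5F and -0.68 in 7E), and the collagen chaperone Serpinh1 rose by 0.78 in 7E. Among 16 sensors and factors of the unfolded protein response, 6 were higher and 0 lower in 5F, and 8 were higher and 0 lower in 7E. Ddit3 (CHOP) had the largest change in 5F with 1.43, followed by Trib3 with 0.98, while in 7E Atf3 rose by 2.61 and Ddit3 by 2.21. Ddit3, Atf3 and Trib3 lie downstream of ATF4 in the integrated stress response as well, which other stresses also start. Of 23 genes of endoplasmic reticulum-associated degradation, 4 were higher and 1 lower in 5F, and 7 were higher and 1 lower in 7E, led by Herpud1 in 7E (log2 change 1.07) and Faf2 in 5F (0.36), while Edem1 fell by 0.17 and 0.14 in 5F and 7E.

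The translocation machinery had 3 higher and 4 lower of 33 genes in 5F, near or below the shares of all genes, and 10 higher and 1 lower in 7E, with Sec62 higher in both (0.24 and 0.31). Cytosolic and mitochondrial chaperones had 2 higher and 7 lower of 40 in 5F and 6 higher and 13 lower in 7E, where Ppid, a cyclophilin that works with HSP90, had a log2 change of -0.41 and -0.45. In 7E against 5F at day 0, 28 of the 46 other folding genes were lower and 1 higher, and 22 of the 33 translocation genes were lower and 3 higher, where 19.7% of all genes were lower and 20.0% higher. The median log2 differences there were -0.17 and -0.21, beside -0.25 for the members and -0.01 for all genes. All list values are scaled to the other mRNAs of a library, and under own spike-ins the median of all genes in 7E moved as given above.

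The half-life of each mRNA was fitted from ln(normalized count + 1) over the 4 time points. At day 0 in 5F the members differed greatly. Pdia6 had the longest value, 583 min (95% interval of the fit 408 to 1020), and Pdia4 had 562 min (359 to 1296). Hsp90b1 followed with 486 min (365 to 725), Pdia3 with 422 min (332 to 578) and Calr with 401 min (307 to 579). No neighbouring pair from Pdia6 down to Hyou1 differed by more than 2 standard errors of its difference in slope. Canx had 362 min (307 to 440) and Hyou1 297 min (233 to 410). Hspa5 decayed faster than Hyou1, with 207 min (170 to 265), and Dnajb9 and Xbp1 were the shortest with 86.9 min (69.7 to 115) and 86.2 min (68.8 to 115). The gap between Hspa5 and Dnajb9 was beyond 2 standard errors, and Dnajb9 and Xbp1 did not differ by that measure.

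The disulphide isomerases, Hsp90b1, Calr and Canx thus outlasted the median gene, while Hspa5 did not in untreated 5F cells. The median half-life of 10970 genes was 277 min, and 7 of the 10 members were longer, among them 5 of the 8 other than Calr and Pdia4. Pdia6 and Pdia4 were longer than 88.7% and 87.4% of genes, Calr than 71.0%, Hspa5 than 33.6% and Xbp1 than 3.47%. In the other groups 8 (5F labelled day 4), 7 (7E day 0) and 8 (7E day 4) of 10 members were longer than the median gene. Dnajb9 and Xbp1 were the 2 shortest members in every group, at 86.2 to 111 min, and Pdia4 and Pdia6 were the 2 longest in every group.

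**Figure D2:**
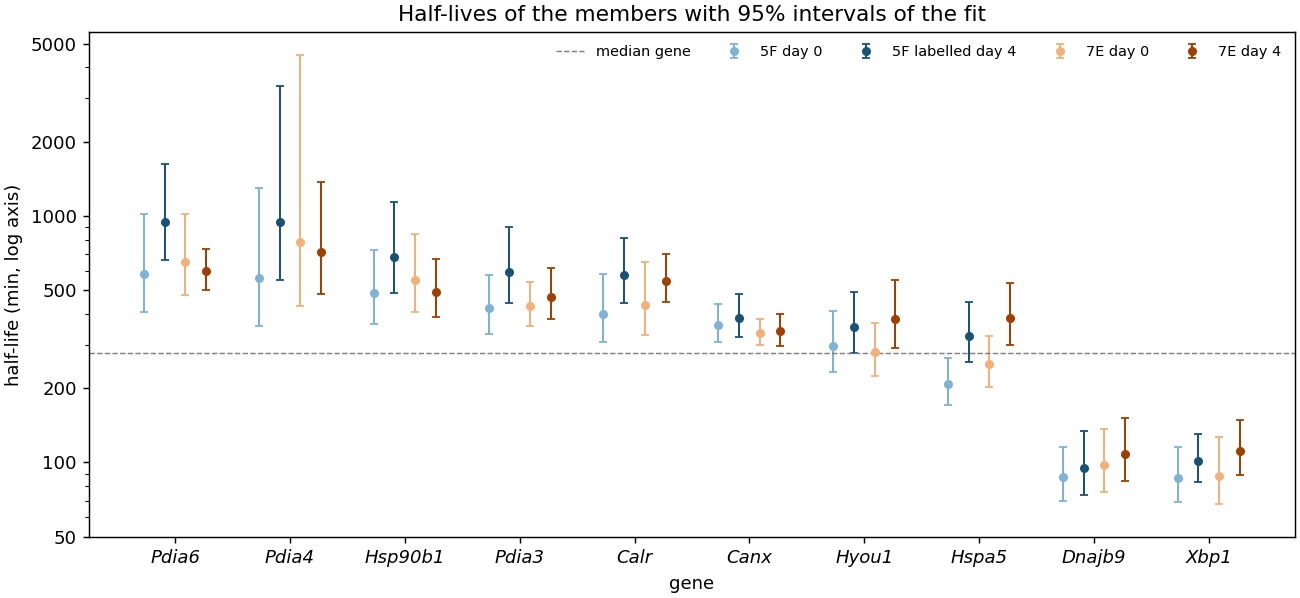
Half-life in min (log axis) of each gene in the 4 combinations of clone and day, with bars for the 95% interval of the fit and a dashed line at the median gene. Dnajb9 and Xbp1 lie between 86.2 and 111 min in every group, and the upper bounds of Pdia4 reach 4503 min in 7E at day 0.

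The curves behind these values were not straight on the log scale. Hspa5 went from 32490, 30119 and 33508 in mock to 16883 and 15358 at 120 min, 10423, 13022 and 11820 at 240 min and 9079, 9411 and 10108 at 360 min in 5F at day 0. This left 50.3%, 36.7% and 29.8% of the mock mean, a continued loss. Pdia4 went from 7096, 6867 and 7207 to 4716 and 4294 at 120 min, 4014, 4931 and 4281 at 240 min and 4266, 4350 and 4712 at 360 min. Its share left was 63.8%, 62.5% and 63.0%, so it fell before 120 min and not detectably after. Calr was left at 65.2%, 56.0% and 53.5% and Pdia6 at 72.1%, 65.4% and 65.1%, with the same early step. Canx kept falling, with 71.2%, 57.8% and 50.2%.

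Xbp1 fell to 448 and 435 at 120 min, to 176, 173 and 196 at 240 min and to 146, 143 and 138 at 360 min in 5F at day 0, from 2486 to 2568 in mock. Dnajb9 was left at 13.8%, 9.55% and 4.76% of its mock mean. The loss of both was thus mostly complete by 120 min. Because of these shapes the fitted half-life depends on the times used. Without the mock libraries the median half-life of the members in 5F at day 0 was 634 min, and without 360 min it was 294.5 min, against 381.5 min from all times. The slope of Pdia4 in 7E at day 0 was above 0 without the mock libraries, so no half-life can be given.

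**Figure D3:**
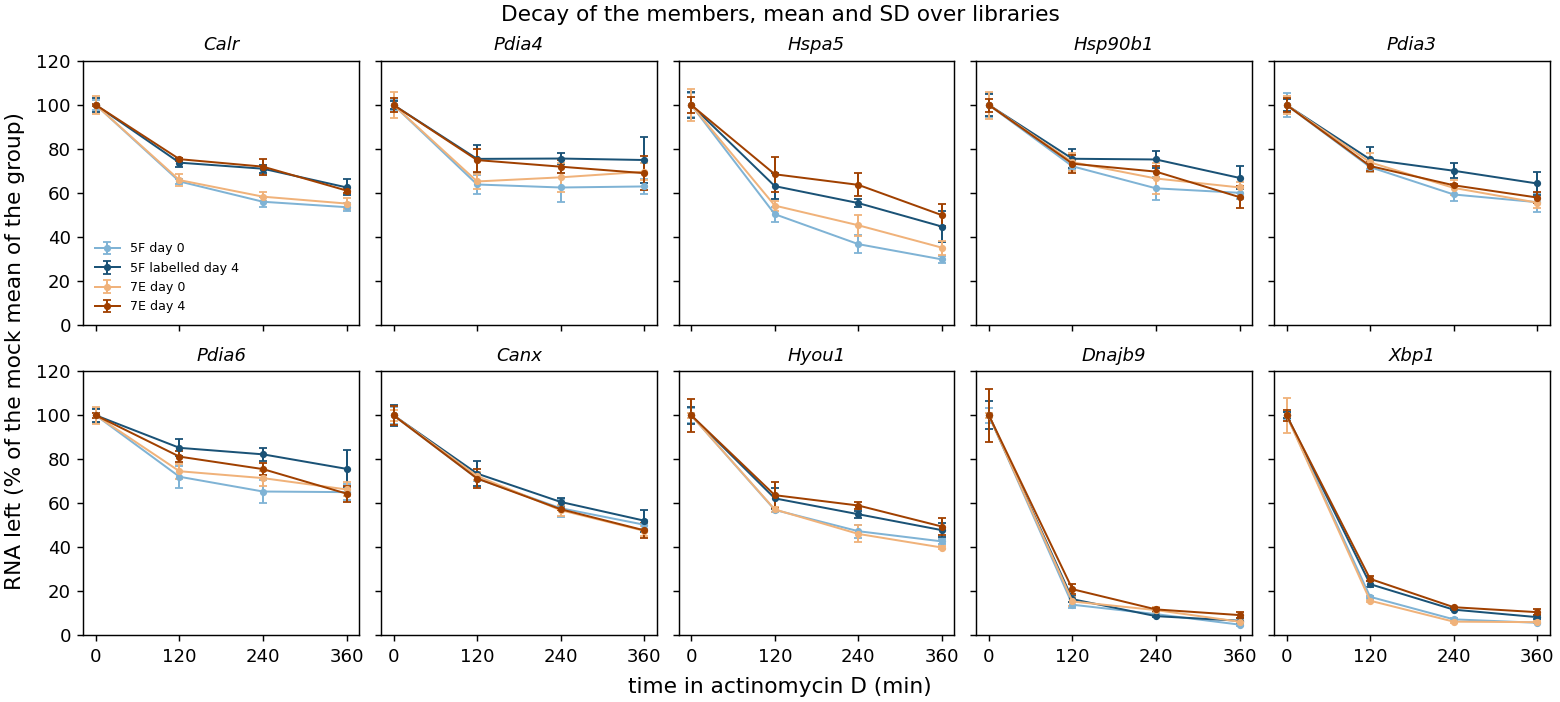
Share of RNA left (% of the mock mean of the same clone and day) after 120, 240 and 360 min in actinomycin D, as mean and SD over 2 or 3 libraries. Pdia4 changes little after 120 min, Hspa5 and Canx keep falling, and the means of Xbp1 and Dnajb9 at 120 min are at or below 25.6% in all 4 groups.

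The fitted half-lives were longer in the 5F libraries labelled day 4 than at day 0 for 10 of 10 members, by 1.07 to 1.69 times, and 51.8% of all genes were longer. Calr had 574 min, Hspa5 324 min, Hsp90b1 684 min and Pdia4 948 min (95% interval 552 to 3370). None of these differences passed the test across all genes. The change in decay, as log2 per hour with a positive value for slower decay, was 0.11 for Hspa5 (standard error 0.03), with an unadjusted p of 0.00290 and an adjusted p of 0.461 by edgeR's quasi-likelihood test. It was 0.04 for both Calr and Pdia4 and between 0.01 and 0.10 for the others (edgeR adjusted p = 1 for each). So 0 of 10 members were called slower and 0 faster in 5F, where 0.134% and 0.0614% of 17901 genes were, and 52.3% of those genes had a positive change. Unadjusted p-values under 0.05 numbered 676 over all genes. For Hspa5 the shares left were 63.1%, 55.4% and 44.7% in the 5F libraries labelled day 4. At 360 min its counts there were 10366, 8733 and 11975, which overlap those of day 0, and the groups were apart in mock.

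In 7E, with a shared spike-in factor for each time point, the members did not move in a single direction. Half-lives were longer at day 4 in 7 of 10, with ratios of 0.90 to 1.54, and 44.7% of all genes were longer. Hspa5 went from 250 min (202 to 327) to 384 min (300.0 to 535), Calr from 436 to 545 min, Hyou1 from 279 to 380 min and Xbp1 from 88.4 to 111 min. Pdia4 went from 786 to 714 min, Hsp90b1 from 549 to 494 min and Pdia6 from 651 to 596 min. The rate of decay differed by 0.09 log2 per hour in Hspa5 (standard error 0.03, edgeR adjusted p = 0.254), 0.06 in Hyou1 (edgeR adjusted p = 0.617) and -0.01 in Pdia4, Hsp90b1 and Pdia6, with none past the threshold. Again 0 of 10 were called slower or faster, where 0.408% and 0.488% of 17417 genes were. With each library scaled by its own spike-ins, the members' change in decay in 7E ran from 0.01 to 0.16 log2 per hour. Every member then had a positive change, and so had 66.8% of all genes, against 48.7% with the shared factors. In 5F the own spike-ins gave -0.003 to 0.09 for the members, with 38.7% of all genes positive. In mock, Hspa5 at day 4 was lower than at day 0, and at 360 min its counts were 7606, 8923 and 9003 at day 0 and 8860, 8335 and 10075 at day 4. The groups were thus apart in mock and overlapped after 360 min, as in 5F.

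Neither the clones at day 0 nor the change in decay between the clones differed detectably for a member. At day 0 the clones differ in Skiv2l and in Aven, as given above. In 7E against 5F at day 0 the largest differences in decay were 0.07 log2 per hour for Dnajb9 (standard error 0.09) and 0.05 for Hspa5 (standard error 0.03, edgeR adjusted p = 1), and 0 of 10 were called, where 0.0281% of 17766 genes were slower in 7E and 0.00563% faster. The difference between the clones in the change in decay was between -0.05 and 0.04 for the members, and 0 of 10 were called, where 0% of 18623 genes were slower and 0% faster by edgeR. Unadjusted p under 0.05 was seen for 477 genes there, and DESeq2 called 2 higher and 2 lower. No member was called for decay under any alternative run, including those that left out the 12 libraries of low mitochondrial share or gave them a term of their own. Without those libraries the median half-life of the members was 357 min in 5F at day 0 and 438.5 min in the 5F libraries labelled day 4.

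Half-lives of the compartment's other genes fell on both sides of the median gene. At day 0 in 5F the median was 414 min for the other folding genes (38 of 44 longer than the median gene), 357 min for translocation genes (24 of 32) and 487 min for cytosolic and mitochondrial chaperones (37 of 40), beside 381.5 min for the members. Degradation genes had 218.5 min (5 of 22) and sensors and factors of the unfolded protein response 150 min (3 of 15). Xbp1 and Dnajb9, at 86.2 and 86.9 min, were shorter than the median of each of these 5 lists. Pdia6, Pdia4, Hsp90b1 and Pdia3 were above the median of the other folding genes. Calr, Canx, Hyou1 (297 min) and Hspa5 (207 min) were below it. Over all 5 lists, 1 gene was called for a change in decay by edgeR in 7E, the mitochondrial chaperone Hspa9, which decayed faster (-0.08 log2 per hour), and 0 in 5F.

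The binding table also holds a half-life column, for which the sources used here do not name the libraries. It lists 5613 mRNAs and 9 of the members, without Dnajb9. There the members ran from 98.3 min for Xbp1 to 386 min for Hsp90b1, all below the column's median of 406 min. On the same mRNAs the values fitted here put Pdia6 above 89.7% and Calr above 69.3% of mRNAs, and the column puts them above 30.4% and 32.5%. Over 5612 mRNAs the Spearman correlation between the column and the half-lives of 5F at day 0 was 0.62, a description across genes. The rank of the long-lived chaperones thus differs between these sources, and the cause was not tested.

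Binding was measured by CRAC, which maps where a tagged protein touches RNA. UV light ties the protein to its RNA in living cells, and the pieces that stay on it through a stringent purification are read by sequencing. The authors pooled the libraries of each protein and scaled the pools to the same size. For each mRNA the counts of SKIV2L, XRN1 and MTR4 are given as ratios to their sum, so these 3 add up to 1. The AVEN ratio is AVEN's scaled count over the same sum and can exceed 1. A pooled ratio has no replicate error, so the values below are a description with no test.

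SKIV2L took the largest ratio in 7 of 10 members, and in 5 of the 8 other than Calr and Pdia4, while it was the largest in 26.5% of 7240 mRNAs. Pdia4 had the highest SKIV2L ratio of the list, 0.623, which is above 96.8% of mRNAs, and Hsp90b1 almost the same, 0.619. Pdia6 (0.556), Calr (0.551), Hspa5 (0.536), Hyou1 (0.517) and Pdia3 (0.512) followed, at percentiles of 89.6 to 93.1. The ratio of the remaining members was not led by SKIV2L. Canx had 0.380 for SKIV2L and 0.404 for XRN1. Xbp1 had 0.249 for SKIV2L, 0.353 for XRN1 and 0.398 for MTR4, and Dnajb9 0.111, 0.465 and 0.424. The 7 members led by SKIV2L, soluble chaperones and disulphide isomerases, thus lay between 0.512 and 0.623 in SKIV2L ratio. The membrane-bound Canx and the short-lived mRNAs of the co-chaperone Dnajb9 and of Xbp1 lay below them. In their XRN1 and AVEN ratios these 7 members spread more widely.

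Among the 7 members led by SKIV2L, the XRN1 ratio ran from 0.144 in Hsp90b1, above 8.84% of mRNAs, to 0.346 in Hyou1, above 52.0%. MTR4 had its lowest ratio in Hyou1, 0.137, above 5.37%. The members' medians were 0.526 for SKIV2L, 0.289 for XRN1 and 0.208 for MTR4, beside 0.267, 0.337 and 0.319 for all mRNAs. The mRNAs nearest to these medians were Brix1, Cops5, Hist1h4c, Srm and Aifm1, at Euclidean distances of 0.0133 to 0.0158 over the 3 ratios.

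**Figure D4:**
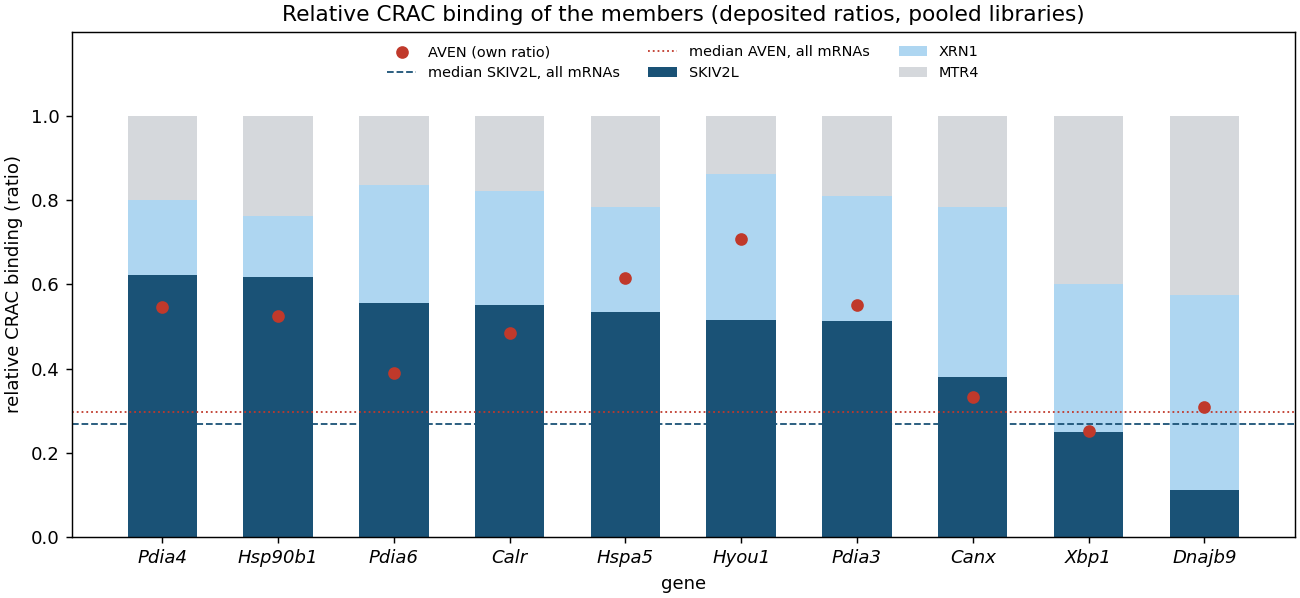
Relative CRAC binding of each gene, with the ratios of SKIV2L, XRN1 and MTR4 stacked to 1 and the AVEN ratio as a dot on the same axis. Dashed and dotted lines give the medians of SKIV2L (0.267) and AVEN (0.296) over all 7240 mRNAs. Seen from left to right, the SKIV2L share is above 0.5 in 7 genes, then drops over Canx and Xbp1 to Dnajb9.

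AVEN binding was above the median of the table in 9 of 10 members, all but Xbp1 (0.251). Hyou1 had the highest ratio, 0.708, above 96.7% of mRNAs, followed by Hspa5 with 0.616, above 94.8%. Pdia3 had 0.550, Pdia4 0.548, Hsp90b1 0.524 and Calr 0.484, above 85.9% to 91.7% of mRNAs. Pdia6 (0.389), Canx (0.333) and Dnajb9 (0.308) were closer to the median. The members' order by AVEN was thus not their order by SKIV2L.

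Most members are abundant mRNAs, although Dnajb9 had a median RPKM of 9.71, beside 21.2 for all mRNAs. The SKIV2L ratio rises with abundance in the table (Spearman correlation with median RPKM 0.56 over 7240 mRNAs, whose ratios share the same pooled libraries). Calr, with a median RPKM of 777 from the authors, was above 92.8% of all mRNAs in SKIV2L ratio. Of the 108 mRNAs within 2-fold of its RPKM, Calr itself included, it was above only 48.1%. For Hspa5 (RPKM 522) the value among 228 such mRNAs was 48.7%, and for Canx (RPKM 290) among 485 it was 24.9%. Xbp1 was above 32.5% and Dnajb9 above 12.9% of mRNAs of similar abundance. The other members stayed high by this measure. Pdia4 (RPKM 168) was above 90.6%, Hyou1 (RPKM 54.3) above 88.0%, Hsp90b1 above 77.3%, Pdia3 above 75.5% and Pdia6 above 73.1%. Pdia4 and Hyou1 therefore ranked highest among mRNAs of their own abundance, and Calr and Hspa5 near the middle. This comparison was added after the values had been seen.

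The AVEN ratio moved less with abundance (Spearman correlation 0.20), and against mRNAs of similar RPKM Hspa5 was above 96.9%, Hyou1 above 96.4% and Pdia3 above 93.4%, with Canx at 51.1% and Xbp1 at 31.5%. Transcript length changed the picture little. Against mRNAs within 25% of their length, the 7 members led by SKIV2L were above 90.3% to 97.5% in SKIV2L ratio.

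**Figure D5:**
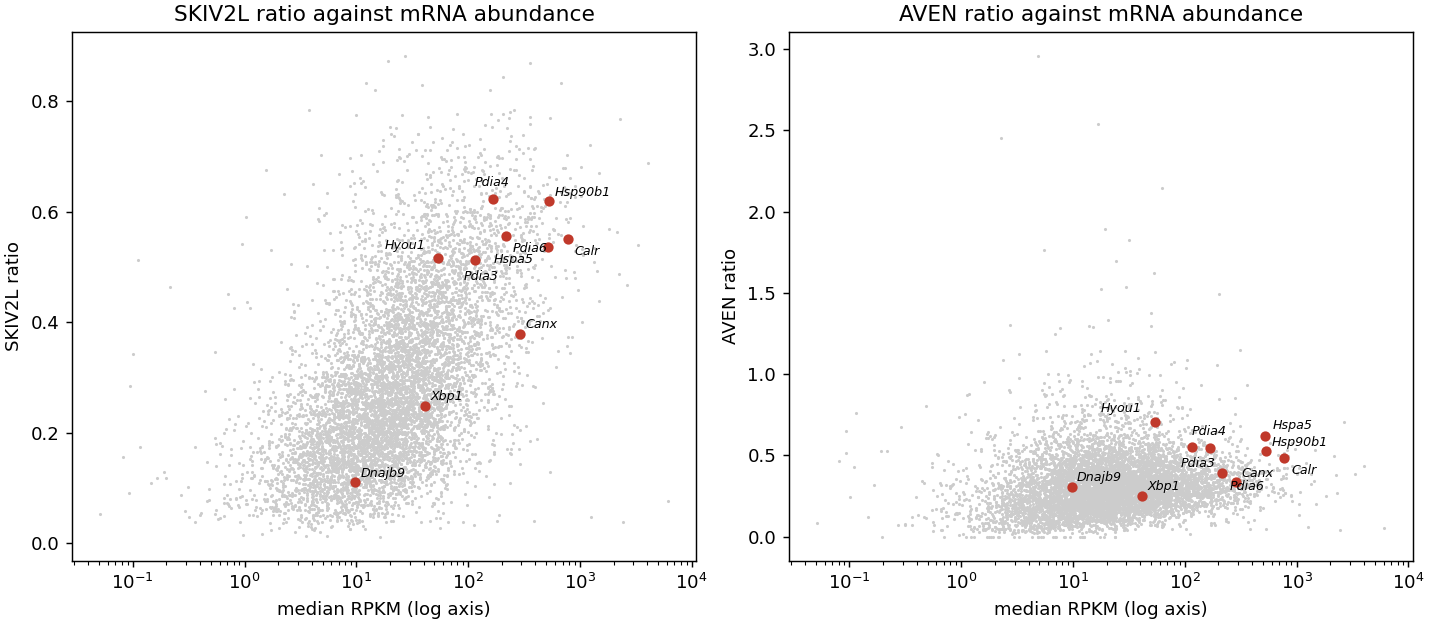
SKIV2L ratio (left) and AVEN ratio (right) of single mRNAs against median RPKM (log axis), for the 7237 mRNAs with an RPKM above 0 in grey and the 10 genes in red. Calr, Hspa5 and Canx lie at RPKM of 290 to 777, where SKIV2L ratios are high in general, while Hyou1 lies at 54.3 with a ratio of 0.517.

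Among the other lists, SKIV2L was the largest of the 3 in 23 of 37 other folding genes (62.2%) and 30 of 37 cytosolic and mitochondrial chaperones (81.1%), and in 9 of 29 translocation genes (31.0%), 3 of 17 degradation genes (17.6%) and 1 of 12 genes of the unfolded protein response (8.33%). High SKIV2L ratios were therefore also seen in chaperones outside the endoplasmic reticulum, whose median RPKM was 236. Their AVEN ratio was lower, with a median of 0.340 beside 0.504 for the members and 0.400 for the other folding genes.

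Set side by side, binding and half-life did not run together over all members. Hspa5 and Hyou1 had SKIV2L ratios within 0.05 of those of Calr and Pdia6, while their half-lives in 5F at day 0 were 207 and 297 min against 401 and 583 min. Dnajb9 and Xbp1 combined the shortest half-lives with the lowest SKIV2L ratios. Besides Calr and Pdia4, the members Hspa5, Hsp90b1, Pdia3, Pdia6 and Hyou1 were led by SKIV2L. In 5F the fitted half-life was longer than that of Calr for Hsp90b1, Pdia3 and Pdia6, and shorter for Hspa5 and Hyou1. Of Hsp90b1, Pdia3 and Pdia6, only Pdia6 was longer than Calr on each day in 7E. Pdia3 was shorter than Calr there at day 0 (430.5 against 436.2 min). At day 4 in 7E, Hsp90b1 (493.5 min) and Pdia3 (470.4 min) were shorter than Calr (545.0 min). Where Calr stood next to Pdia3, Hsp90b1 or Pdia6 in order of half-life, the slopes differed by less than 2 standard errors. For Pdia3 in 5F at day 0 the difference was 0.005 ln per hour (standard error 0.018). Calr was compared in this way only with its neighbours. In the half-life column of the binding table Pdia6 (309.5 min) was below Calr (319.8 min), while Hsp90b1 and Pdia3 were above it. With 10 members and pooled binding values from other cell lines, this comparison of binding and half-life is a description.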

How the data were processed

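The authors mapped the reads of the half-life libraries with STAR to GRCm38 with ERCC sequences added, counted those with a single location per gene (Gencode M16) without regard to strand, and deposited the counts without normalization. The deposited CRAC ratios come from libraries that the authors pooled and scaled, for mRNAs above a count minimum, with replicates merged. RNA-seq of the tagged lines gave the RPKM values that the authors deposited. A SKIV2L score that the authors adjusted for RPKM, to check for differences in transcript level between the tagged lines, was used as an alternative, and the deposited half-life score is of unstated origin. The authors' fold changes, p-values and their own table of half-lives were deposited as well and were not used.

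Counts were divided by DESeq2 1.42.0 size factors computed among libraries of the same time point, then multiplied by a spike-in factor for that time (1, 0.649, 0.531 and 0.438 at 0, 120, 240 and 360 min), from 34 ERCC RNAs with a mean above 50 counts. The study writes of a division, here applied so that counts fall as mRNA falls. Tests were edgeR 4.0.16 quasi-likelihood tests (R 4.3.3) on the counts of all genes that passed filterByExpr, with Benjamini-Hochberg adjustment at 0.05. Mock levels were compared between groups, and changes in decay were tested as interactions between time and either day or clone. All 10 members passed the filter in each fit. Half-lives used ln(normalized count + 1) and are ranked among genes with at least 100 normalized counts in mock. Scripts were tested on simulated data. Of the 53380 genes, 53274 had a symbol in Gencode M21, whose exons gave the lengths. Of per-sample columns 0 were left unused, and chi-square values per gene between replicates were at least 2.81, so 0 libraries were copies. The labels do not say what a replicate number stands for. By the correlation of deviations from the group means, the numbers pair the mock libraries of 5F and 7E at day 0 (0.18 to 0.42 over 3 pairs) and not those of the days within 5F (-0.38 to -0.09) or within 7E (-0.34 to -0.03).

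Named were all members and, from each other list, up to 2 called genes per direction with the largest change. The 5 genes most like the members in mock and the 5 mRNAs nearest in binding were chosen by rule. The members and lists were chosen with earlier results of these data known. Alternatives were other scalings, tools and filters, time points or replicates left out, a replicate block and other backgrounds for the binding percentiles. After the data were seen, 2 treatments of the libraries of low mitochondrial share (under 1.5%) and a background of similar RPKM were added.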

Additional observations from a re-analysis of the deposited data

Results flagged for a closer look

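The change from day 0 to day 4 in mock differed between the clones, by an interaction term over the 12 mock libraries in edgeR's quasi-likelihood test, for 3 members. The log2 change was higher in 7E than in 5F by 0.22 for Pdia3, 0.19 for Pdia6 and 0.20 for Canx, with adjusted p of 0.0271, 0.0378 and 0.0363. In Pdia3 the change was -0.11 in 5F and 0.11 in 7E, neither past the threshold. Pdia6 fell in 5F (-0.30) and had -0.11 in 7E, and Canx had 0.03 in 5F and rose in 7E (0.24). The calls were lost without replicate 1 and without replicate 3, for Pdia6 also without replicate 2 and without a filter on low counts, and under the libraries' own spike-ins the differences were -0.81, -0.84 and -0.83, so they hold only relative to the other mRNAs of a library. The 5F libraries labelled day 4 did not show a fall of Skiv2l, and the part of this in the difference was not tested.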

How the results depend on the processing

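Scaling mattered most for the mock levels. With every library scaled by its own spike-ins, 10 members were lower and 0 higher in 7E at day 4, with Pdia3 at -0.99, Canx at -0.86, Hyou1 at -0.99 and Dnajb9 at -0.97 (log2 change). The difference between the clones then had 10 members lower and 0 higher, with Calr at -0.98, Pdia4 at -0.85, Hspa5 at -0.98, Hsp90b1 at -0.99, Pdia3 at -0.81, Pdia6 at -0.84, Canx at -0.83, Hyou1 at -0.87 and Dnajb9 at -0.90. Over all genes, calls higher and lower under own spike-ins were 1063 and 2351 in 5F (2095 and 1903 otherwise), 259 and 14717 in 7E (3381 and 3170), 1619 and 6290 in 7E against 5F (3258 and 3219) and 54 and 14319 in the difference (1145 and 910). The shifts in 7E stand beside the ERCC counts of its day 4 libraries, and the cause was not tested. Leaving out each replicate in turn gave 1 to 2 members higher in 7E and 0 to 2 higher in the difference between the clones, against 1 and 3. With the replicate number as a block, 1 member was higher in that difference against 3. The numbers do not pair all 4 mock groups (correlations of same-numbered libraries from -0.46 to 0.47, positive between clones of the same day), and after 120, 240 and 360 min the median correlations were 0.42, 0.31 and 0.29. The block took the calls over all genes in mock in 5F from 2095 higher and 1903 lower to 1651 and 1300, in 7E from 3381 and 3170 to 3150 and 2862, and in 7E against 5F at day 0, where the numbers pair, from 3258 and 3219 to 4023 and 4085, with 7 members lower against 6.

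The members' median half-life in 5F at day 0, 5F labelled day 4, 7E at day 0 and 7E at day 4 was 634, 815, 427 and 685 min without mock and 294.5, 400.1, 301 and 367 min without 360 min, against 381.5, 480, 383 and 427 min from all times, and 514 min in 7E at day 4 under own spike-ins. Pdia4 in 7E at day 0 had a fitted value of -2530 min without mock, which means no decay. The median SKIV2L percentile of the members was 90.8 among all mRNAs, 89.7 among those with an RPKM of at least 5, 91.9 by the authors' RPKM-adjusted score, which follows the plain ratio (Spearman correlation 0.99) and rises with RPKM as well (0.535), and 60.9 among mRNAs of similar RPKM.

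Of 880 values of single members under alternatives, 11 lost and 13 gained a call, 13 changed sign with a call on either side, all under own spike-ins, and 36 more changed sign with no call on either side (values between -0.06 and 0.06). Precision is limited by 3 libraries per group from wells of a single clone, by the depth of Dnajb9 after 360 min (16.7 normalized counts in 5F at day 0) and, for binding, by pooled values.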
